A study of Homo sapiens with 6 samples.

Results

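MET and the Eph receptors are receptor tyrosine kinases, cell-surface proteins that bind a ligand outside the cell and phosphorylate tyrosines inside it. MET, HGF, MST1R and every gene named as an Eph receptor (EPHA or EPHB) or an ephrin ligand (EFNA or EFNB) were looked up by symbol, and 7 of the 770 genes in the table matched. These were MET, its ligand HGF, and the Eph receptors EPHA1, EPHA2, EPHB1, EPHB3 and EPHB4. MST1R and the ephrins, the ligands of the Eph receptors, were not analysed here.

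RNA abundance was compared between 2 cultured lines of A375, a human malignant melanoma cell line with the BRAF V600E mutation, each also carrying a luciferase reporter according to its catalogue name. The NRAS wild-type line gave 3 samples. The other line, isogenic with it apart from NRAS Q61K, an activating mutation of a RAS GTPase, gave the other 3. Neither line was treated, both grew in the same serum-supplemented medium, and cells were used at most 5 population doublings after thawing. Each genotype is represented by a single line, so a property of that line and an effect of NRAS Q61K cannot be told apart. Nothing in the labels says that the 3 samples of a line were separate cultures, so p-values measure only the spread between these samples, which may be technical.

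HGF, secreted mainly by stromal cells, binds MET and drives scattering, migration and survival of epithelial cells and melanocytes, and MET is studied in melanoma for its part in invasion and in escape from BRAF inhibitors. Eph receptors bind ephrins that are tethered to the neighbouring cell, mostly in an A-to-A and B-to-B manner, and signal in both cells to control repulsion, boundary formation and the actin cytoskeleton. EPHA2 also signals without ligand when phosphorylated on serine by kinases downstream of growth factors, and EPHB4 with its ligand ephrin-B2 separates veins from arteries.

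In NRAS Q61K cells MET and EPHA2 were lower and EPHB3 was higher under each of 5 scalings of the samples to each other, although EPHA2 was higher when set against 5 of 28 single housekeeping genes. EPHB4 passed as higher as deposited but under none of the other 4 scalings. EPHB1 was lower under those 4 but did not pass as deposited. EPHA1 and HGF were near the minimum of the table in both lines. Values are normalized counts of an nCounter panel, in which 1 barcoded probe pair per gene is counted without amplification. Probes differ in efficiency, so levels of different genes are not compared. A gene was tested if its mean over the 6 samples exceeded a detection floor of 129.7 normalized counts, set from negative control probes, which 454 of 740 endogenous genes and 5 of the 7 members did. The test was limma on log2(value + 1), and adjusted p-values were taken over all tested genes. Differences between the lines were widespread, with 83% of the tested genes passing at an adjusted p of 0.05, 62.1% of them higher and 20.9% lower in NRAS Q61K cells as shares of all tested genes. For 84.1% of the tested genes, every sample of 1 line exceeded every sample of the other. That 4 of the 5 tested members passed, and that the same 4 separated the lines in this way, is therefore near the background.

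The sequences directly upstream of the annotated starts of the 4 members that passed are shown because these genes moved in opposite directions as deposited, 2 down and 2 up. Each is the 250 bases before the start on the gene's own strand, taken from RefSeq on GRCh38.p14, where all 7 members matched by symbol. Capitals mark the GC box GGGCGG on either strand, the site of Sp and KLF factors. MET is at chr7:116671946-116672195 on the plus strand, EPHA2 at chr1:16156070-16156319 on the minus strand, EPHB3 at chr3:184561535-184561784 on the plus strand and EPHB4 at chr7:100827524-100827773 on the minus strand.
MET: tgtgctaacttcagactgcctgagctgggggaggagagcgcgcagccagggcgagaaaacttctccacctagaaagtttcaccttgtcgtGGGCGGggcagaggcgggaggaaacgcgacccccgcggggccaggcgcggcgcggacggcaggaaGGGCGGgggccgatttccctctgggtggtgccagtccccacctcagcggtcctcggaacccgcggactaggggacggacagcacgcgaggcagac
EPHA2: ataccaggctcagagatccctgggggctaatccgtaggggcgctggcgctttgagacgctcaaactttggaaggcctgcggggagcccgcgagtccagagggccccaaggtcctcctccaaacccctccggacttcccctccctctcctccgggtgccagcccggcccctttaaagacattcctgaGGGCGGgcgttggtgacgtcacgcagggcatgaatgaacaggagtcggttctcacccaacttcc
EPHB3: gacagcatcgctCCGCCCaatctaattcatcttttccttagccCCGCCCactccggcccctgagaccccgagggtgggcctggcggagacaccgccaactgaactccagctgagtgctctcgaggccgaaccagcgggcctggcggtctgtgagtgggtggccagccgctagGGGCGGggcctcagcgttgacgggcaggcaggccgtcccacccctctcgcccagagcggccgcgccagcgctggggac
EPHB4: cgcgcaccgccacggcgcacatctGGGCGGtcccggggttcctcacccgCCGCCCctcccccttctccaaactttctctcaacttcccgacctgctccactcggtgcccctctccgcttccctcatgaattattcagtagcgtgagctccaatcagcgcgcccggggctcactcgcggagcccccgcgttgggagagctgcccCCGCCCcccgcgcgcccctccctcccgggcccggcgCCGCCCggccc
The GC box occurs 2 times before MET, 1 time before EPHA2, 3 times before EPHB3 and 4 times before EPHB4, and at least once in 42.64% of 35116 RefSeq promoters of this length. All 4 stretches are richer in G and C than the median promoter, at 68.4%, 63.2%, 70.0% and 72.8% in the same order against 58.0%. Among the members not shown, the GC box occurs 5 times before EPHA1, 1 time before EPHB1 and 0 times before HGF. The AP-1 site TGANTCA, the ETS site CCGGAA and the hypoxia response core ACGTG, searched on both strands and present in 6.57%, 14.53% and 18.51% of promoters, have no match in these windows for any of the 7 members. These letters were chosen with the values known, and the windows leave out distal elements.

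MET, the receptor of hepatocyte growth factor, was the member with the deepest fall. It had 4006, 3919 and 3980 normalized counts in the wild-type line and 2363, 2452 and 2385 in the NRAS Q61K line. All mutant samples lay far below all wild-type samples, and the spread within a line was 1.12% (wild type) and 1.92% (mutant) of the mean. The means were 3969 ± 44.6 and 2400 ± 46.1 (SD, n = 3 each), a log2 difference of -0.73 (SE 0.029), or 1.65-fold lower with a 95% confidence interval of 1.57 to 1.74 (limma adjusted p = 1.53e-06). Ranked by log2 difference, 6.84% of the other tested genes lay below MET. HGF, its ligand, was at the table's minimum of 1 in all 3 wild-type samples and at 6.77, 8.7 and 1.12 normalized counts in the mutant samples. All 6 values are far under the floor, so no fold is given and the HGF transcript was not detectable at this depth.

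EPHA2, a class A Eph receptor, was also lower. The wild-type samples held 5319, 5096 and 5092 normalized counts and the mutant samples 4026, 4075 and 4118, with no overlap. The means were 5169 ± 130 and 4073 ± 46.1 (SD, n = 3 each). EPHA2 was 1.27-fold lower, with an interval of 1.20 to 1.34 and a log2 difference of -0.34 (SE 0.031; limma adjusted p = 7.48e-05). EPHA1, the other class A receptor analysed, held 5.39, 3.46 and 4.49 normalized counts in wild-type cells and 2.13, 5.37 and 1.12 in mutant cells. These values overlap and are all under the floor, so EPHA1 was not tested.

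Among the class B receptors EPHB3 rose most. Wild-type replicates had 232, 226 and 208 normalized counts, and NRAS Q61K replicates had 460, 397 and 388. The lowest mutant sample was above the highest wild-type sample, although the mutant samples spread more, by 9.39% of their mean against 5.86%. EPHB3 was 1.86-fold higher, with an interval of 1.63 to 2.13 and a log2 difference of 0.90 (SE 0.078; limma adjusted p = 6.26e-05), at 415 ± 39.0 against 222 ± 13.0 (SD, n = 3 each).

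EPHB4, the receptor of ephrin-B2, had 540, 471 and 478 normalized counts in the wild-type line against 719, 633 and 650 in the NRAS Q61K line, again without overlap. Its means were 496 ± 38.2 and 667 ± 45.5 (SD, n = 3 each), a log2 difference of 0.43 (SE 0.073) or 1.34-fold higher with an interval of 1.19 to 1.52 (limma adjusted p = 0.0018). Before scaling, wild-type replicates had 602, 522 and 532 counts and NRAS Q61K replicates 619, 570 and 581, which overlap. The separation of the EPHB4 samples thus came with the factor by which each sample was multiplied, 0.898 to 0.903 for the wild-type line and 1.11 to 1.16 for the NRAS Q61K line. MET did not depend on it, with 4463, 4342 and 4430 counts before scaling against 2035, 2208 and 2130 in the NRAS Q61K line.

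EPHB1, a class B receptor best known from axon guidance, varied most within a line among the 5 tested members. The wild-type samples held 278, 235 and 211 normalized counts and the mutant samples 245, 233 and 153, so the lines overlapped. The spread was 14.1% of the mean in wild-type and 23.8% in mutant cells, more than the 6.10% and 7.34% that counting error alone gives at about 269 and 186 counts before scaling. The log2 difference was -0.22, with a 95% confidence interval from -0.71 to 0.27 (limma adjusted p = 0.336), which leaves room for a fall as deep as that of EPHA2 and for a small rise. Mutant replicate 3 set much of this value, since without it the log2 difference was -0.0073. In both lines replicate 1 was the highest sample for EPHB1, EPHB3 and EPHB4.

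**Figure D1:**
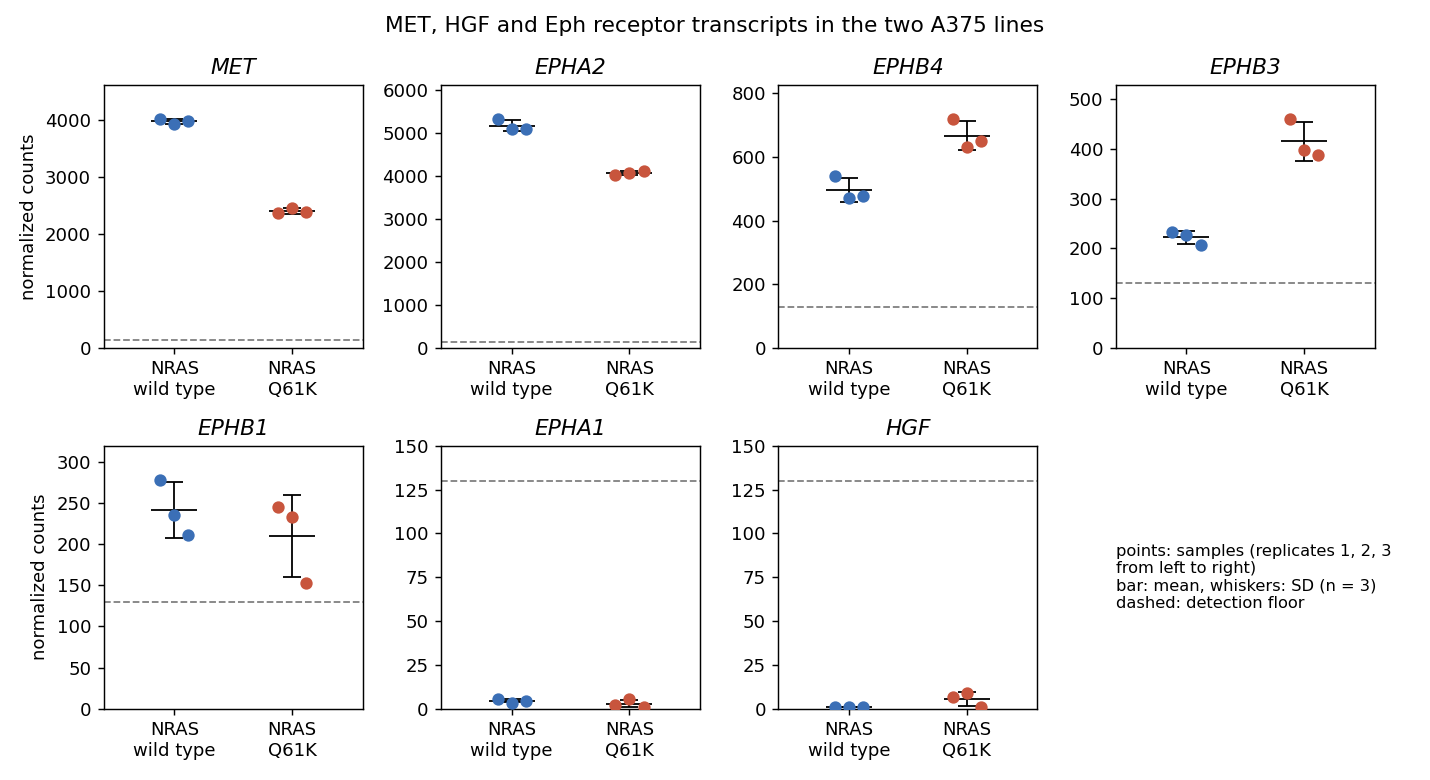
Normalized counts of the 7 members (vertical axes from 0, 1 panel per gene) in the 3 samples of each line, with the mean (bar), the SD (whiskers) and the detection floor of 129.7 (dashed line). MET and EPHA2 are lower in every NRAS Q61K sample, EPHB3 and EPHB4 are higher in every one on this deposited scale, EPHB1 overlaps, and EPHA1 and HGF lie near 0.

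The calls of EPHB4 and EPHB1 depended on how samples were made comparable. The authors' scaling equalised housekeeping genes and left the median tested gene 0.32 higher (log2) in mutant cells. Without the sample factors that median was -0.0079, with scaling by the spiked positive control probes 0.0047, after rescaling to equal medians -0.13 and after quantile normalization -0.12. The log2 difference of MET was -1.05, -1.04, -1.18 and -1.18 in these 4 scalings, and that of EPHA2 was -0.67, -0.66, -0.80 and -0.72. Both passed in each, so the deposited scale gave the smallest fall for either gene. EPHB3 also passed in each, with 0.57, 0.58, 0.45 and 0.45. EPHB4 passed in none of them, with 0.10, 0.11, -0.025 and -0.041 and limma adjusted p-values of 0.221, 0.399, 0.694 and 0.387. EPHB1 was lower in all 4, with -0.55, -0.54, -0.67 and -0.72 and adjusted p-values of 0.0375, 3.70e-06, 0.0126 and 0.0252, and it still passed in each without mutant replicate 3 (highest adjusted p = 0.0446). With the positive control probes the fit gave every gene the same variance. No p-value or call under that scaling, for EPHB1 or any other gene, therefore reflects the spread of that gene itself. In each of these 4 scalings 1 tested member was higher and 3 were lower. Of all tested genes, 38.5% were higher and 35.2% lower without the sample factors, 34.8% and 30.6% with positive control scaling, 33% and 45.4% after median rescaling, and 33.7% and 45.2% after quantile normalization. Under all 5 scalings, 31.5% of tested genes were higher, as EPHB3 was, and 20.9% lower, as MET and EPHA2 were. The other 4 scalings shift nearly all genes downwards, so a lower call had little chance to be lost.

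Measured from the panel median on the deposited scale, the log2 differences were -1.05 for MET, -0.66 for EPHA2, -0.54 for EPHB1, 0.11 for EPHB4 and 0.58 for EPHB3. Without the sample factors, with positive control scaling and after median rescaling, samples differ by 1 factor each, so these distances could hardly move. Quantile normalization could move them. There they were -1.06 for MET, -0.60 for EPHA2, -0.60 for EPHB1, 0.078 for EPHB4 and 0.57 for EPHB3. EPHB4 thus lay close to the middle of the panel, with 57.6% of the other tested genes below it.

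**Figure D2:**
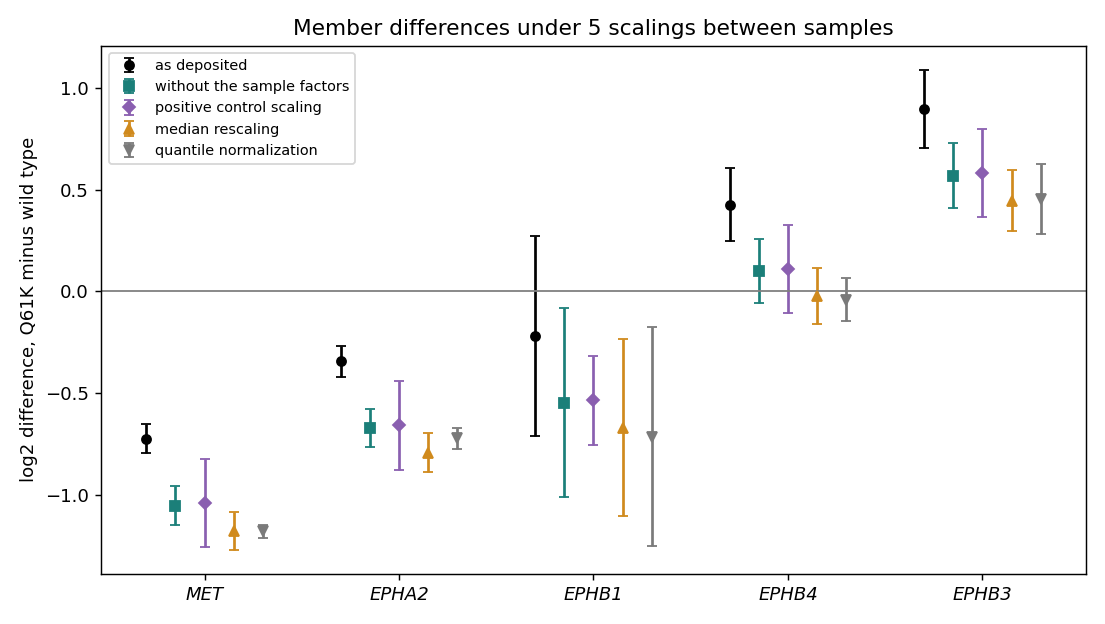
Log2 difference between NRAS Q61K and wild-type cells (vertical axis) of the 5 tested members under 5 scalings between samples, with 95% confidence intervals from limma as whiskers. MET and EPHA2 lie below 0 and EPHB3 above 0 under each scaling, while EPHB4 is clear of 0 on the deposited scale alone and EPHB1 is below 0 under the other 4.

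A ratio of 2 members within a sample is free of that sample's factor, and 10 such ratios were compared between the lines. The log2 ratio of EPHB4 to MET was -2.89, -3.05 and -3.06 in the wild-type line and -1.72, -1.95 and -1.87 in the NRAS Q61K line. These do not overlap, and the ratio was 2.22-fold higher in mutant cells, a difference that no factor per sample can alter. The ratio of EPHB3 to MET was 3.08-fold higher in mutant cells, at -2.53 ± 0.15 against -4.15 ± 0.087 (log2, SD, n = 3 each). Between the Eph classes, the ratio of EPHA2 to EPHB3 was 2.36-fold lower and that of EPHA2 to EPHB4 1.70-fold lower in mutant cells, at log2 values of 2.61 ± 0.11 against 3.38 ± 0.073 for the latter (SD, n = 3 each). MET and EPHA2 fell by different amounts in these samples. The log2 ratio of EPHA2 to MET was 0.41, 0.38 and 0.36 in the wild-type line and 0.77, 0.73 and 0.79 in the NRAS Q61K line, 1.30-fold higher. The ratio of EPHB3 to EPHB4 was 1.39-fold higher. With 3 samples a line, an exact 2-sided permutation test cannot go below p = 0.1, and 8 of the 10 ratios reached that limit (adjusted p = 0.125 over the 10). The other 2 involve EPHB1, whose log2 ratio to MET differed by 0.50 (exact permutation p = 0.2) and whose ratio with EPHA2 differed by -0.12 as EPHA2 over EPHB1 (exact permutation p = 0.7). The 10 ratios come from 5 genes and are not independent. Ratios of other tested genes were not computed. Since 84.1% of single tested genes separated the lines, 8 of 10 is not read as particular to these members.

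**Figure D3:**
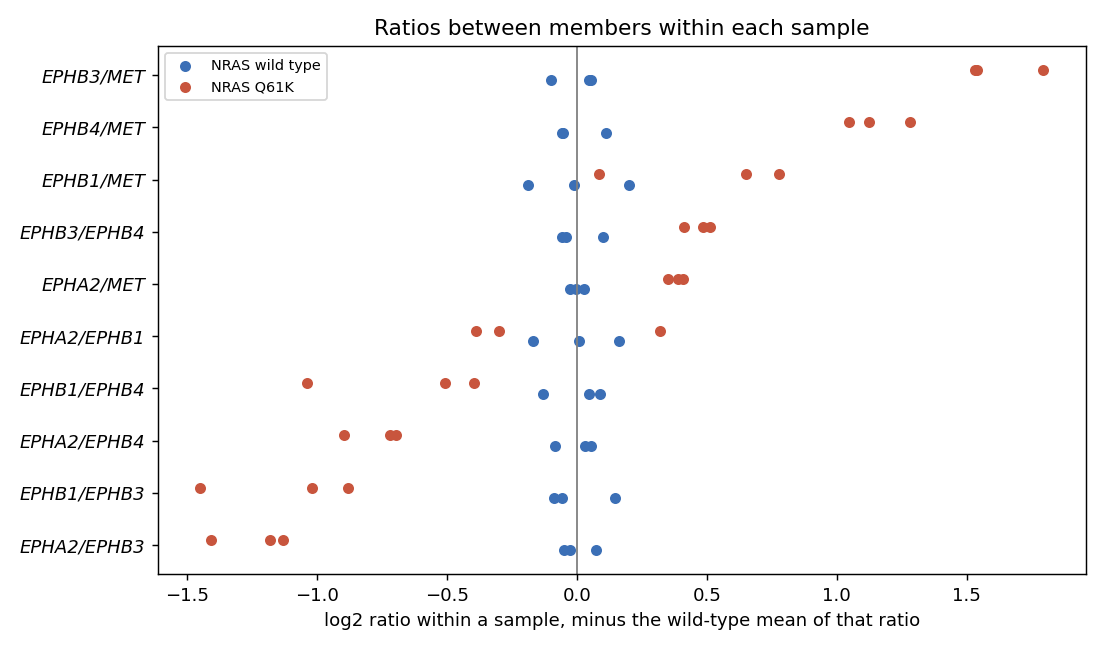
Log2 ratio of each pair of members within each sample, minus the wild-type mean of that ratio (horizontal axis), for wild-type (blue) and NRAS Q61K (red) samples. The lines separate for 8 of the 10 pairs, most widely for EPHB3 over MET and EPHA2 over EPHB3, and overlap for EPHB1 over MET and EPHA2 over EPHB1. The pairs come from 5 genes, and 84.1% of single tested genes also separate the lines.

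Of 42 other receptor tyrosine kinases listed, 15 were in the table and 9 were tested. PDGFRB, FLT1 and KDR were under the floor in wild-type cells and were tested only because of their mutant values, so their direction was fixed by the filter. Of the 6 above the floor in both lines, ERBB2, ERBB3, FGFR1, FGFR4 and DDR2 were higher and EGFR was lower, beside 62.1% of all tested genes higher and 20.9% lower. ERBB2 passed on the deposited scale alone. ERBB3, a neuregulin receptor, had 968 ± 39.6 against 141 ± 4.42 normalized counts (SD, n = 3 each; limma adjusted p = 4.38e-08). FGFR1, a fibroblast growth factor receptor, had 1456 ± 49.4 against 396 ± 16.2 (limma adjusted p = 1.54e-07). DDR2, a collagen receptor, was 2.05-fold higher, and PDGFRB, a platelet-derived growth factor receptor, at least 5.29-fold higher because its wild-type mean was under the floor. With genes under the floor in 1 line set to their bounds, the median log2 difference of the 9 was 1.04 against 0.32 for all tested genes. That median counts PDGFRB, FLT1 and KDR, whose direction the filter fixed, so it does not show how the other kinases moved. EGFR was 1.24-fold lower, at 617 ± 6.29 against 767 ± 11.7 (SD, n = 3 each; limma adjusted p = 6.89e-05), close to EPHA2 in size. MET and EPHA2 thus passed in the same direction as EGFR, and EPHB3 in that of ERBB3, FGFR1, FGFR4 and DDR2.

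**Figure D4:**
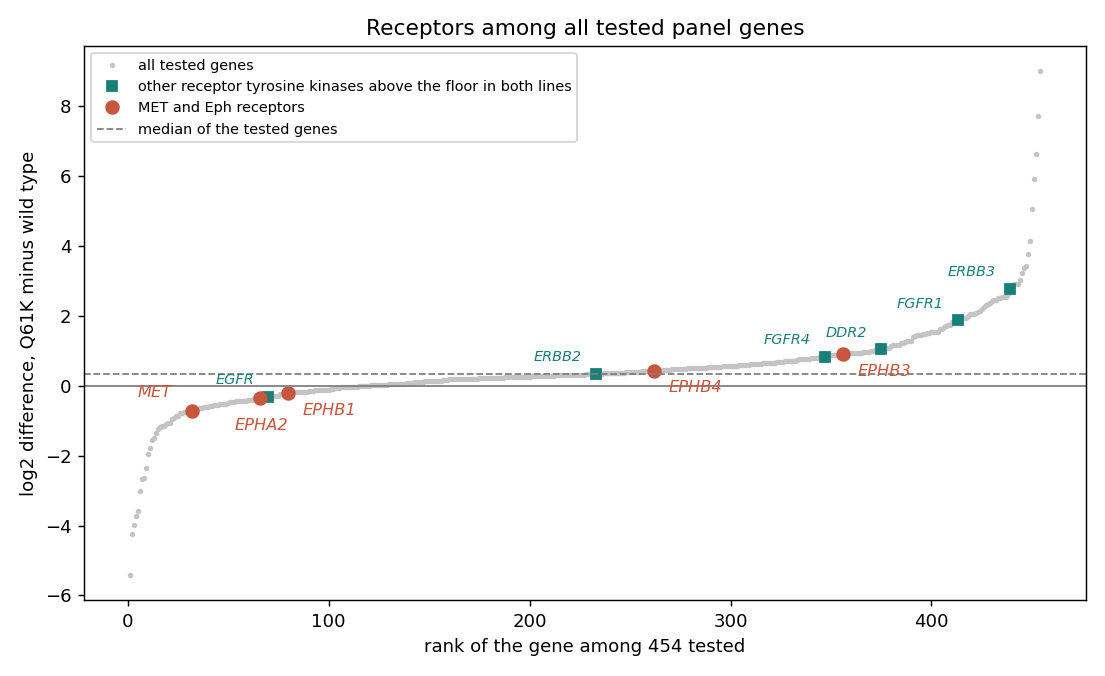
Log2 difference between NRAS Q61K and wild-type cells (vertical axis) of the 454 tested genes in rank order (horizontal axis), with the 5 tested members and the other receptor tyrosine kinases above the floor in both lines marked. MET, EPHA2 and EGFR lie below 0, and ERBB3, FGFR1, DDR2, FGFR4 and EPHB3 lie above the panel median (dashed); the extreme values at either end belong largely to genes under the floor in 1 line, whose fitted differences depend on the pseudocount.

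Of 38 listed genes of the HGF and MET pathway, 17 were in the table and 13 were tested. As deposited 11 were higher and CD44 was lower, beside 62.1% of all tested genes higher and 20.9% lower. Under the other 4 scalings 9 were higher and 2 or 3 lower. Of all tested genes, 33% to 38.5% were higher there and 30.6% to 45.4% lower. ADAM17, 1 of the 11, was called lower after median rescaling and quantile normalization. The list's median log2 difference was 0.62 against 0.32 for all tested genes. All 7 tested adaptors and effectors were higher and were so under each scaling, as were 31.5% of all tested genes. PLCG1, the phospholipase that binds activated receptors, was 1.79-fold higher at 2397 ± 7.75 against 1342 ± 41.2 normalized counts (SD, n = 3 each; limma adjusted p = 1.32e-06). CTNNB1, encoding beta-catenin, which associates with MET at the membrane, was 1.65-fold higher. Among partners of MET at the membrane, the laminin-binding integrin subunit gene ITGB4 was 2.42-fold higher, at 1355 ± 66.0 against 558 ± 22.1 (limma adjusted p = 1.32e-06), and the neuropilin gene NRP2 2.41-fold higher. NRP1, also a neuropilin gene, had no call as deposited (limma adjusted p = 0.342) and was called lower under the other 4 scalings. CD44, the hyaluronan receptor whose variant forms serve as a MET co-receptor, had 9005 ± 96.9 against 9516 ± 163 (SD, n = 3 each), 1.06-fold lower (limma adjusted p = 0.0388), and this call was lost when any 1 sample was left out (adjusted p from 0.0555 to 0.117). Under the other 4 scalings CD44 was lower by more, with log2 differences from -0.53 to -0.40 (limma adjusted p from 1.17e-05 to 0.000744). Of the factors that activate HGF or restrain that step, PLAU passed as higher on the deposited scale alone, and ST14 and SPINT1 were under the floor.

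Of 54 listed Eph and ephrin pathway genes, 22 were in the table and 18 were tested. As deposited 13 were higher, a share near the 62.1% of all tested genes, and CAV1 was lower, beside 20.9%. The list's median log2 difference was 0.38 against 0.32 for all tested genes. Under the other 4 scalings 8 were higher and between 4 and 8 lower, where 33% to 38.5% of all tested genes were higher and 30.6% to 45.4% lower. This list shares 4 tested genes with the MET list. CLDN4, a tight junction claudin that EPHA2 can phosphorylate, was 4.35-fold higher at 1848 ± 39.3 against 426 ± 45.7 normalized counts (SD, n = 3 each; limma adjusted p = 1.05e-06). PTK2, encoding focal adhesion kinase, was 1.74-fold higher and the gelatinase gene MMP2 1.49-fold higher. CAV1, encoding the caveolar coat protein caveolin 1, was 1.58-fold lower at 2578 ± 39.3 against 4067 ± 42.1 (SD, n = 3 each; limma adjusted p = 1.92e-06) and lower under each scaling.

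The tested genes whose profile over the 6 samples lay nearest to each member were found from log2 values centred on each gene's mean, by root mean square distance. With 2 lines this likeness is mainly a like difference between them. Nearest to MET were ANXA2P2 (distance 0.018), an annexin A2 pseudogene whose probe may also read the parent gene, MAP2K2 (0.019), encoding the kinase MEK2, and CAV1 (0.039). Nearest to EPHA2 were CIB1 (0.017), encoding a calcium- and integrin-binding protein, the glycolytic enzyme gene GPI (0.027) and EGFR (0.033). EPHB3 lay nearest to the growth factor gene BMP4, the cytokine gene IL1A and the gelatinase gene MMP9 (0.052 to 0.058), and EPHB4 to NF1, which encodes a RAS GTPase-activating protein, the GTPase gene RAC2 and the cadherin gene CDH13 (0.050 to 0.053). The nearest genes to EPHB1 were ARAP2, MAP2K4 and SPHK2, at a greater distance of 0.19 to 0.20.

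Summed over all genes, counts before scaling ranged from 1224146 to 1264654 in the wild-type line and from 1158504 to 1189615 in the NRAS Q61K line. The number of transcripts per cell and the share of cells that express a gene cannot be told apart in such bulk RNA. Of 15 melanocyte-lineage markers 3 were in the table, ERBB3, MCAM and SOX9. All 3 were higher, beside 62.1% of all tested genes, so they say little about lineage. Their sum ranged from 2138 to 2146 normalized counts in the wild-type line and from 4142 to 4561 in the NRAS Q61K line. Pigment-cell genes such as MITF and MLANA were not analysed here. Eph receptors and MET are also expressed by endothelial and epithelial cells. Of 9 endothelial markers analysed, 5 were above the floor, the sum over all 9 ranged from 870 to 958 normalized counts for the wild-type line and from 1411 to 1623 for the NRAS Q61K line, and FLT4 was at the minimum in every sample. Of the 5, ROBO4 was 1.55-fold lower and lower under each scaling, and CD34 had no call as deposited. PECAM1 passed as higher on the deposited scale alone. KDR and FLT1 were tested only because of their mutant values. Of 13 epithelial markers 1 was above the floor, with sums of 476 to 568 and 342 to 439 in the same order, and CDH1, EPCAM and TJP3 were at the minimum throughout. That 1 marker, GRHL2, had no call, at 144 ± 18.1 and 175 ± 41.1 (SD, n = 3 each). The fall in the sum thus came from markers under the floor. Of 8 fibroblast and mural markers 5 were above the floor, with sums of 1801 to 1863 and 5851 to 6094 and COL1A2 at the minimum. Most of that sum was CSPG4, which melanoma cells also express, at 1303 ± 24.2 and 4355 ± 102 (SD, n = 3 each). Among the 5, PDGFRB, LUM and FAP were under the floor in wild-type cells and were tested only because of their mutant values. Of 2 leukocyte markers none was above the floor, with PTPRC at the minimum. The part of these differences in the members' values was not tested.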

How the data were processed

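Total RNA of 6 samples was read with the nCounter PanCancer Progression panel, per the labels. The deposited values are a normalized signal, and the authors' steps were inferred from these numbers, since their software and settings are not given in the sources used here. Each deposited gene value is a count minus a background, times 1 factor per sample, held at 1 or above. Dividing by that factor placed 100% of low values within 0.03 of whole steps. The geometric mean of 30 housekeeping genes, named from knowledge of the panel, was 728 to 733 in every sample.

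The floor was the mean of 8 negative control probes (31.7) plus 2 SD (49.0 each). Testing used limma 3.58.1 in R 4.3.3 (lmFit, eBayes, 2-sided, Benjamini-Hochberg adjustment), with a pseudocount of 1. Fold changes come from log2(value + 1), which understates those of low genes. A gene under the floor in only 1 line has a bound, the brighter mean divided by the floor ("at least").

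Members and lists were chosen with earlier results of these data known. Non-members named are the 3 nearest genes of each member, and in each list the 4 with the smallest adjusted p and any lower member. Beyond this rule, PLAU, ADAM17, ST14, SPINT1, ERBB2, FGFR4, FLT1, KDR and the cell type markers were named after their values were seen. The fit was tested on simulated data. Wild-type replicates 2 and 3 did not differ beyond counting noise over tested genes (chi-square per gene 1.08, p = 0.125) but did over 578 genes with a mean above 20 (1.16, p = 0.00523), and were kept as separate samples. The other pairs differed in both. NRAS and BRAF were not analysed here.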

Additional observations from a re-analysis of the deposited data

How the results depend on the processing

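MET, EPHA2 and EPHB3 kept direction and call under these alternatives: the other 4 scalings, a pseudocount of 10, no floor or a doubled one, a variance trend, the replicate block and leaving out each sample. EPHB1 at a doubled floor was not tested, and EPHB1 and EPHB4 are the exceptions. EPHB4 was 0.097 without the sample factors and 0.11 with positive control scaling (neither passed), and reversed to -0.025 after median rescaling and -0.041 after quantile normalization. EPHB1 passed in the same 4 scalings, at -0.55, -0.54, -0.67 and -0.72, and without mutant replicate 3 at -0.34, -0.33, -0.48 and -0.51. In those 4 scalings 1 member was higher in place of 2. Leaving out 1 sample gave log2 differences of -0.74 to -0.71 for MET, -0.35 to -0.32 for EPHA2, 0.82 to 0.94 for EPHB3, 0.37 to 0.49 for EPHB4 and -0.35 to -0.0073 for EPHB1. Against single housekeeping genes, chosen after seeing the data, MET was lower with all 28 references above the floor and EPHA2 with 23, reversing to 0.11 at most, while EPHB1 reversed to 0.23. EPHB3 and EPHB4 were higher with all 28, at 0.59 to 1.35 and 0.12 to 0.88. These references are among the genes that the deposited scale equalised. The EPHA2 to EPHB1 ratio reversed to 0.010 without mutant replicate 1 (range -0.34 to 0.010).

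In the order without factors, positive controls, median and quantile, the Eph pathway list had 8 higher each time and 6, 4, 7 and 8 lower (3 lower with no floor), and the MET pathway list had 2, 2, 3 and 3 lower (2 with no floor). It had 0 lower with the replicate block, with wild-type replicates 2 and 3 averaged as 1 sample, and without each sample in turn (0 to 0), where CD44 no longer passed. Higher kinases numbered 13 with no floor and 4 with a doubled floor, in place of 8. NF1 reversed to -0.078 and -0.043 and RAC2 to -0.10 and -0.059 after median rescaling and quantile normalization, and neither passed in any of the other 4 scalings. CDH13 passed only without the factors among them, and ARAP2, MAP2K4 and SPHK2 were called lower in all 4.

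Changed genes numbered 297 to 518 over all alternatives, and 392 with the replicate block. Same-numbered samples deviated together with correlations of 0.22, 0.053 and 0.066, so the numbers were not taken as pairs. The block ended the call of CD44 and brought that of MAP2K4 (adjusted p = 0.016). No test allows for error in the scaling itself.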
